A study of Mus musculus with 6 samples.

Results

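Type I interferon response genes were examined in microglia, the immune cells that reside in brain tissue, from control mice and from mice whose dams had eaten little sodium early in pregnancy. The members were 45 genes chosen by name: interferon receptors, transcription factors of the pathway and interferon-stimulated genes. Of these, 44 were found among the 26789 genes of the deposited table, and all 44 were among the 18007 genes that were tested, those whose mean over the 6 libraries reached 10 normalized counts. Gbp5 was not analysed here. The groups were controls (C57Bl/6 mice kept on standard rodent chow throughout development, 3 libraries) and E3–E12 diet mice (the dams ate a low sodium chow and drank distilled water from embryonic day 3 to day 12 and then returned to standard chow and tap water, 3 libraries). Both sexes were used. By the study's methods each library holds microglia of the rostral nucleus of the solitary tract (NST), the brainstem relay for taste, pooled from 6 littermates on postnatal day 15 and sorted with magnetic beads against CD11b, so that a library stands for 1 litter. The text deposited with the samples names laser microdissection instead, which leaves the way the cells were obtained uncertain, and no library is tied to individual animals in the labels.

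Type I interferons signal through a receptor made of the products of Ifnar1 and Ifnar2. Janus kinases bound to it phosphorylate STAT proteins, and a complex that holds STAT2 and IRF9 then binds interferon-stimulated response elements in promoters and switches on interferon-stimulated genes, many of which encode antiviral proteins. IRF7 is both a product and an amplifier of this response, and USP18 and other products dampen it. Microglia carry the receptor, and a small subset of microglia with a strong interferon signature has been described in the developing and aging brain. Several of the listed guanylate-binding proteins and immunity-related GTPases, and the receptor subunit Ifngr1, also belong to the response to interferon gamma.

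The promoters of the members were searched for the letters of interferon response motifs. RefSeq windows (build GRCm38.p6) of 250 bases before to 50 bases after a gene's start were given for 35 of the 45 members. The interferon-stimulated response element was searched as GAAA, any 2 bases and GAAA again, on both strands, so that its reverse complement counted as well and overlapping matches counted separately. It was found in 19 of the 35 members (54.3%) and in 1079 of 27025 genes with a window (3.99%). The gamma-activated site, TTCNNNGAA, which reads the same on both strands, was found in 11 of the 35 members (31.4%) and in 2582 genes (9.55%). A match is a description of letters and not a bound site. In 16 members a match to the response element lay wholly before the start, and in 7 of them at least 2 matches did. The stretches of 8 of these 16 are shown as examples, in the direction of transcription with the matched letters in capitals. They carry values discussed below or hold several matches side by side. The same holds for some that are not shown, such as Gbp3 and Trim30a.
Rsad2: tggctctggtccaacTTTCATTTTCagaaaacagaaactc
Irgm1: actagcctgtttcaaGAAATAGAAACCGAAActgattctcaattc
Stat2: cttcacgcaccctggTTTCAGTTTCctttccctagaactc
Isg15: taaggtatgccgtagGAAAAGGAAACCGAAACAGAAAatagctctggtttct
Ifit1: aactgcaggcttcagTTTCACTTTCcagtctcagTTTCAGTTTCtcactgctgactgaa
Ifit3: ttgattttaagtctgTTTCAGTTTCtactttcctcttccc
Oas1a: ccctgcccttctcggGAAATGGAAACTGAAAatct
Bst2: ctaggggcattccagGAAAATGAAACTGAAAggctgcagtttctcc
In GRCm38 these stretches lie at chr12:26456548-26456587 on the minus strand for Rsad2, chr11:48871421-48871465 (minus) for Irgm1, chr10:128270261-128270300 (plus) for Stat2 and chr4:156200860-156200911 (minus) for Isg15. Those of Ifit1 and Ifit3 lie at chr19:34640770-34640828 and chr19:34583392-34583431 (both plus), and those of Oas1a and Bst2 at chr5:120907526-120907560 and chr8:71537572-71537617 (both minus). The stretch nearest the start is shown, and Ifit3 held another match farther before its start. Isg15 held 3 overlapping matches, ending 56 bases before its start. No match in these letters was found in the windows of Irf7, Ifit2, Slfn2 or Cmpk2, which says nothing more than that the letters are not in those windows.

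The normalized counts of a library summed to between 9407141 and 17204618, and between 3459 and 10640 of the 26789 genes were listed at 0, the most in control replicate 2. Low values gathered at whole multiples of a step that differed between libraries, from 0.54 normalized counts in control replicate 3 to 1.98 in control replicate 2, with 58.8% to 75.1% of the low values within 0.08 of a step of a multiple. If a step stands for a single read, a read was worth most in control replicate 2, where low values are then the least precise. All 10 microglia markers were present in every library, but their summed level ranged from 104309 to 522634 normalized counts in controls and from 103457 to 318940 in E3–E12 diet mice. It was lowest in control replicate 1 and E3–E12 diet replicate 1. Choroid plexus markers were also present, at 39874 normalized counts in E3–E12 diet replicate 1 against 52.4 to 18597 in the other libraries. The 5 border macrophage markers summed to between 4644 and 16878 in controls and between 4192 and 8202 in E3–E12 diet mice, and the 7 endothelial markers to between 5445 and 12111 against between 6315 and 10571. Monocyte (75.2 to 191), neutrophil (309 to 2257), astrocyte (1121 to 3440), neuron (227 to 1579), oligodendrocyte (4386 to 40915) and erythroid (2.31 to 125) markers had lower sums than the microglia markers in every library. In such bulk samples fewer cells of a type and less RNA per cell cannot be told apart.

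Across the 44 members no difference between the diets passed the test. Levels were compared as log2(normalized count + 1) by a two-sided limma test with Benjamini-Hochberg adjustment over all 18007 genes and the study's threshold of 0.1. No member passed (0 of 44, smallest adjusted p = 0.999), and of all genes the limma fit called 0 (0%). The study's own analysis, with DESeq2, listed genes past this threshold in both directions, none of them a member. The 0 over all genes is thus that of this limma fit on normalized counts. With an unadjusted p under 0.05 there were also 0 members, beside 327 of all genes (1.82%). There were 22 members on the higher side in E3–E12 diet mice and 22 on the lower side, beside 54.4% and 45.6% of all genes. The median log2 fold change of the members was 0.0067, against 0.087 over all genes tested, and single members lay between -1.52 and 1.59, with 8 of 44 (18.2%) beyond 1 in either direction, beside 28.9% of all genes. A direction is that of the mean log2 level throughout, and in 5 members the mean normalized count pointed the other way. The median standard error of a member was 0.78, so differences of that size in a single gene were not detectable at this number of libraries. Larger ones did not pass either, up to the 1.59 of the member with the largest. In 2 members the groups did not overlap, Slfn2 and Rsad2 (4.55%), beside 5.90% of all genes.

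**Figure D1:**
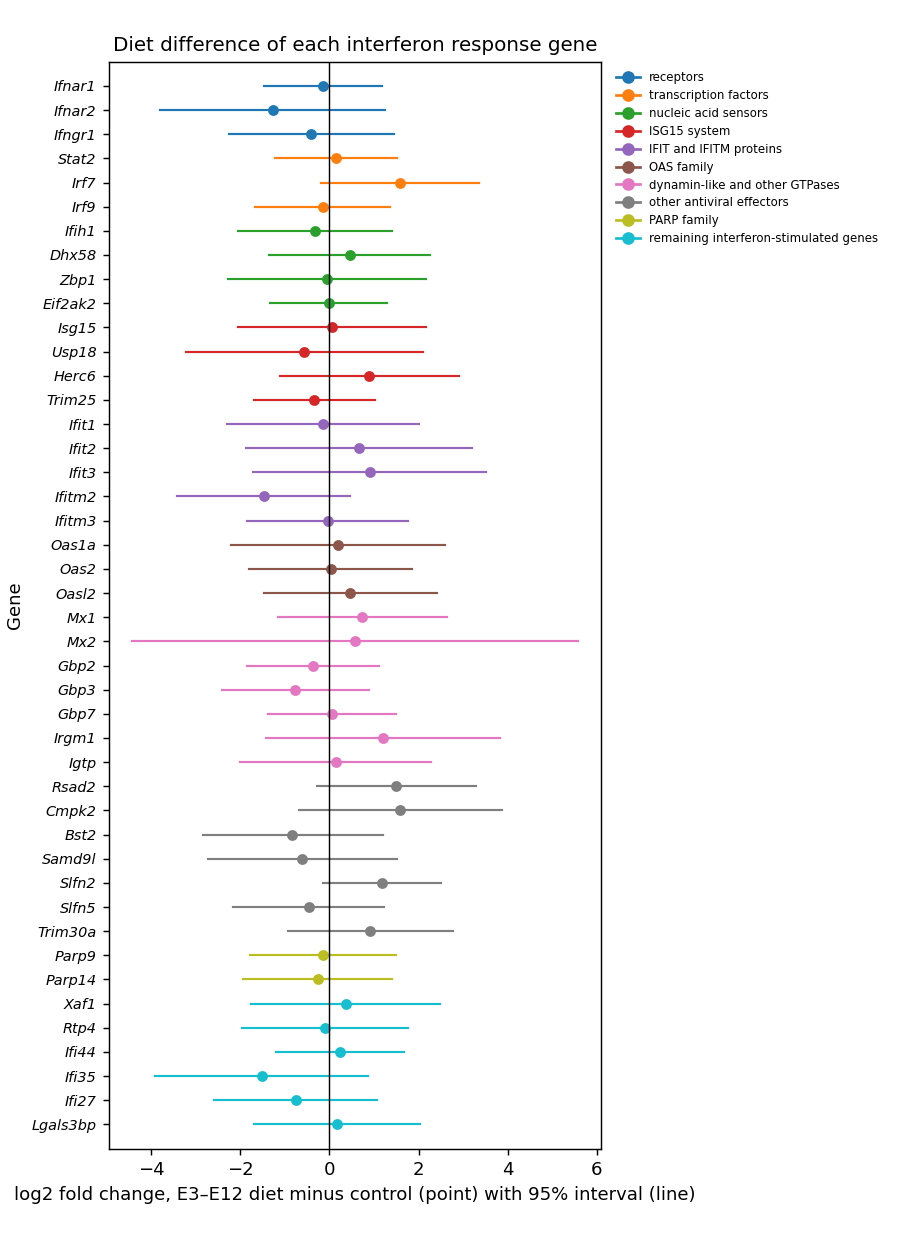
Log2 fold change of each of the 44 members (horizontal axis, E3–E12 diet minus control, on the log2(normalized count + 1) scale), coloured by role, with lines for the 95% interval from limma. All 44 intervals cross 0, and the points lie between -1.52 and 1.59.

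As deposited, the 3 receptor genes lay on the lower side in E3–E12 diet mice by less than the spread between libraries, and Ifnar2 kept this direction in every alternative run, while that of Ifnar1 turned after quantile normalization (0.010), with array weights (0.13) and without control replicate 2 (0.036) or E3–E12 diet replicate 1 (0.03), and that of Ifngr1 turned without control replicate 3 (0.074) or E3–E12 diet replicate 1 (0.058). Ifnar1 had 1678, 2388 and 1589 normalized counts in the controls, listed here and below in the order of replicates 1, 2 and 3, and 1311, 1832 and 1955 under the E3–E12 diet. The ranges overlapped, and the log2 fold change was -0.15 with a standard error of 0.55. Ifnar2 had 1219, 14561 and 2096 normalized counts in the controls, and 711, 1808 and 2046 under the E3–E12 diet. Control replicate 2 stood far above the rest, and the log2 fold change of -1.27 (standard error 1.06) was -0.21 without it. Of the 50-base windows of the Ifnar2 transcripts, 7.89% also occur in an overlapping annotated gene. Ifngr1, the ligand-binding subunit of the interferon gamma receptor, had 520, 1141 and 2091 normalized counts in the controls, and 425, 1202 and 1041 under the E3–E12 diet (log2 fold change -0.41, standard error 0.77), and the ranges overlapped.

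Of the transcription factors, Irf7 had the smallest unadjusted p of all members, and Stat2 and Irf9 had log2 fold changes within 0.15 of 0. Irf7 lies on chromosome 7 (chr7:141262706-141266481, minus strand). It had 21.2, 35.9 and 72.1 normalized counts in the controls, and 62.5, 131 and 191 under the E3–E12 diet. The highest control thus lay above the lowest E3–E12 diet library and below the other two. The means were 128 ± 64.2 against 43.1 ± 26.2 (SD, n = 3 libraries each), and the log2 fold change of 1.58 had a standard error of 0.74 and a 95% interval from -0.18 to 3.35 (limma unadjusted p = 0.0715, adjusted p = 0.999). The exact permutation test, two-sided, gave p = 0.2, where 3 libraries against 3 cannot go below 0.1. Leaving out any 1 library kept the log2 fold change of Irf7 between 1.17 and 2.03. Stat2 had 615, 878 and 826 normalized counts in the controls, and 569, 1037 and 1018 under the E3–E12 diet, so that E3–E12 diet replicate 1 was the lowest of all 6 and the other E3–E12 diet libraries the highest (log2 fold change 0.14, standard error 0.57). Irf9 had 570, 1061 and 742 against 410, 757 and 1053 normalized counts, with overlapping ranges (log2 fold change -0.15, standard error 0.63).

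**Figure D2:**
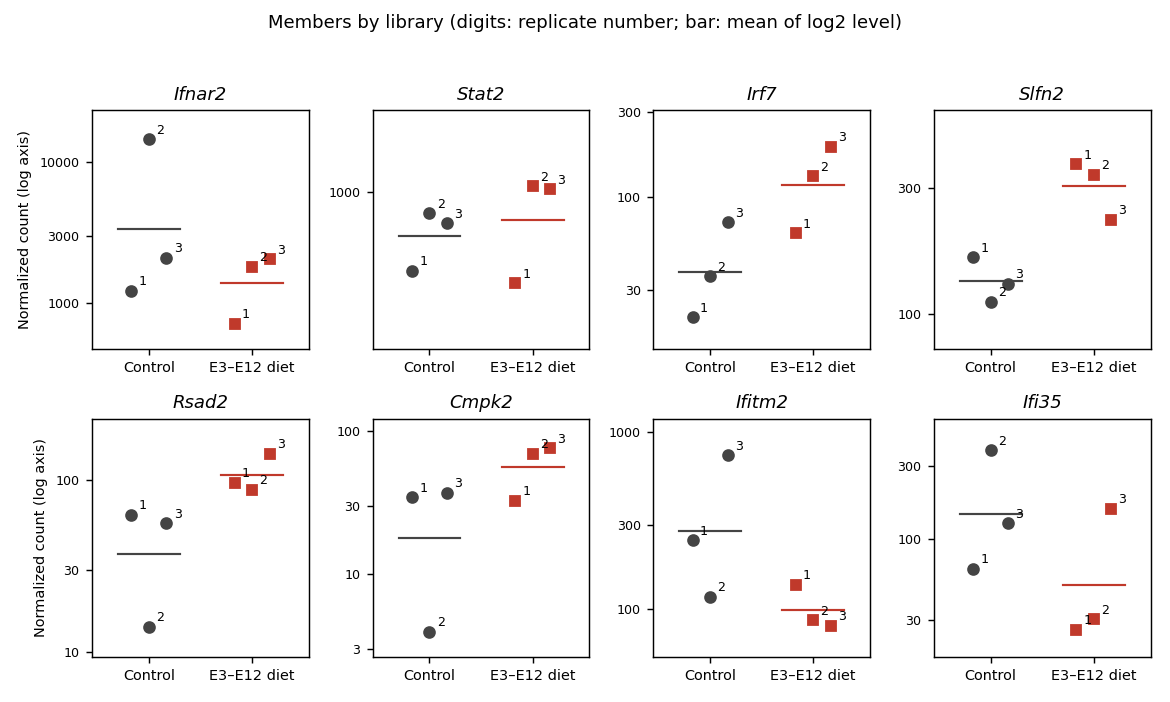
Normalized counts (vertical log axis) of 8 members in each library, with controls as circles, E3–E12 diet libraries as squares, the replicate number beside each point and a bar at the mean of the log2 level. Slfn2 and Rsad2 are the members whose groups do not overlap, and Ifnar2 reaches 14561 in control replicate 2.

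Of the 4 nucleic acid sensors 1 was on the higher side as deposited, and the directions of Dhx58 (-0.012) and Eif2ak2 (0.14) turned after quantile normalization and that of Zbp1 (0.04) after rescaling the libraries to a common total. Eif2ak2, which encodes the RNA-activated kinase PKR, was the steadiest member in this role, with 875, 1476 and 1065 normalized counts in the controls, and 1160, 1228 and 937 under the E3–E12 diet. Its log2 fold change of -0.015 had a 95% interval from -1.33 to 1.30. Ifih1, the sensor of long double-stranded RNA known as MDA5, had 475, 219 and 581 against 276, 184 and 597 normalized counts, with overlapping ranges (log2 fold change -0.33, standard error 0.72). Dhx58, a regulator of such sensors, had a log2 fold change of 0.45, and Zbp1, a sensor of Z-form nucleic acid, one of -0.056.

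In the ISG15 system, which attaches a ubiquitin-like protein to targets, the members did not share a direction. Trim25, a ubiquitin and ISG15 ligase, had 1229, 2206 and 1149 normalized counts in the controls, and 1247, 1059 and 1160 under the E3–E12 diet, and 5 of the 6 libraries lay close together (log2 fold change -0.34, standard error 0.57, or -0.044 without control replicate 2). Herc6, an ISG15 ligase of the mouse, had 201, 87.7 and 366 against 232, 219 and 815 normalized counts, and E3–E12 diet replicate 3 was the highest (log2 fold change 0.89, standard error 0.84). Without that library the value was 0.27. Of the Herc6 windows of 50 bases, 12.5% occur in other annotated genes. Isg15 itself, given in full after its values were seen, had 84.2, 386 and 44.1 normalized counts in the controls, and 107, 112 and 134 under the E3–E12 diet. The E3–E12 diet libraries lay close together (118 ± 14.6, SD, n = 3), and the controls spread around them (172 ± 187, SD, n = 3). Usp18, which removes ISG15 and restrains the receptor, had a log2 fold change of -0.57 (standard error 1.11), although the mean normalized counts lay the other way (E3–E12 diet 66.7 ± 83.1, controls 55.7 ± 27.3).

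The IFIT and IFITM proteins act on foreign RNA and on virus entry at membranes. Ifitm3 had 554, 327 and 899 normalized counts in the controls, and 405, 314 and 1172 under the E3–E12 diet, with overlapping ranges (log2 fold change -0.041, standard error 0.76, and 0.074 after rescaling the libraries to a common total). Ifitm2 had 245, 118 and 737 against 138, 86.8 and 81.2 normalized counts. Only E3–E12 diet replicate 1 reached into the range of the controls (log2 fold change -1.47, standard error 0.81, 95% interval -3.41 to 0.46, adjusted p = 0.999 from limma). Without control replicate 3, the highest library, the value was -0.77, and without control replicate 2 it was -2.09. Of its 50-base windows, 48.5% are shared with other annotated genes, so that its reads may have been split between copies and the value is uncertain. Ifit1, Ifit2 and Ifit3, which lie near each other on chromosome 19, had log2 fold changes of -0.14, 0.67 and 0.90 with standard errors of 0.90, 1.06 and 1.09, and 51.2% of the windows of Ifit3 are shared with its neighbour Ifit3b.
The OAS family makes a messenger that activates a ribonuclease. Oas2 had 254, 275 and 316 normalized counts in the controls, and 106, 553 and 398 under the E3–E12 diet, and the controls lay entirely within the range of the E3–E12 diet group (log2 fold change 0.028, standard error 0.76, and -0.11 after quantile normalization). Oasl2 had 561, 280 and 675 against 272, 696 and 1501 normalized counts, again with both extremes in the E3–E12 diet group (log2 fold change 0.47, standard error 0.81). Oas1a, with 57.6% of its windows shared with Oas1g and other copies, had a log2 fold change of 0.19.

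Among the GTPases, 5 of the 7 tested were on the higher side, none past the test, and Igtp turned to -0.26 after quantile normalization. Irgm1, an immunity-related GTPase, had 274, 28.1 and 461 normalized counts in the controls, and 249, 438 and 404 under the E3–E12 diet. Control replicate 2 was far below the other libraries, and the log2 fold change of 1.2 (standard error 1.10) was -0.011 without it. Gbp7, a guanylate-binding protein, had 690, 1083 and 1463 against 795, 1084 and 1424 normalized counts, nearly the same values in each group (log2 fold change 0.056, 95% interval -1.38 to 1.49). Mx2, which the annotation lists as a polymorphic pseudogene, was listed at 0 in 4 libraries and had 23.9 normalized counts in control replicate 2 and 79.9 in E3–E12 diet replicate 3. Mx1, Gbp2, Gbp3 and Igtp had log2 fold changes between -0.77 and 0.73.

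Of the other antiviral effectors, Slfn2 and Rsad2 were the members whose groups did not overlap, and in both each E3–E12 diet library lay above all controls. Slfn2, a schlafen protein known for its role in immune cell quiescence (chr11:83065112-83070678, plus strand), had 164, 111 and 130 normalized counts in the controls, and 367, 336 and 227 under the E3–E12 diet. Its spread within groups was small (SD 0.329 on the log2 scale), and its log2 fold change of 1.18 had a standard error of 0.55 and a 95% interval from -0.14 to 2.51 (limma unadjusted p = 0.0723, adjusted p = 0.999, exact permutation p = 0.1, the smallest that 3 against 3 allow). It stayed between 1.05 and 1.39 with any 1 library left out. Rsad2, which encodes the antiviral enzyme viperin (chr12:26442746-26456452, minus strand), had 62.6, 14 and 55.7 normalized counts in the controls, and 95.7, 87.3 and 141 under the E3–E12 diet, and its log2 fold change was 1.5 (standard error 0.75, limma unadjusted p = 0.0877, adjusted p = 0.999, exact permutation p = 0.1). Without control replicate 2 its log2 fold change was 0.83.
Cmpk2, a mitochondrial nucleotide kinase, is the neighbour of Rsad2 on chromosome 12 (chr12:26469204-26479837, plus strand). It had 34.8, 3.98 and 37.2 normalized counts in the controls, and 32.9, 69.7 and 76.7 under the E3–E12 diet. E3–E12 diet replicate 1 lay below 2 controls, and the value in control replicate 2 was within a few steps of 0 (a step there was 1.98, log2 fold change 1.59, standard error 0.95, or 0.63 without control replicate 2). Trim30a, which restrains Toll-like receptor signaling, had 353, 189 and 768 against 1002, 369 and 929 normalized counts, with overlapping ranges (log2 fold change 0.91, standard error 0.77, or 0.43 without control replicate 2). Slfn5 had 893, 3139 and 909 against 1061, 765 and 1174 normalized counts and was highest in control replicate 2 (log2 fold change -0.47, or 0.13 without that library). Bst2, which encodes the virus tether tetherin, had a log2 fold change of -0.83, and Samd9l one of -0.61, with standard errors of 0.84 and 0.88.

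Parp9 and Parp14, ADP-ribosyltransferases of the response, were both slightly on the lower side. Parp14 had 880, 1165 and 1276 normalized counts in the controls, and 412, 1166 and 1587 under the E3–E12 diet, and Parp9 had 253, 293 and 443 against 187, 216 and 599. In each gene the highest and the lowest library belonged to the E3–E12 diet group (log2 fold changes -0.26 and -0.14).
Of the remaining interferon-stimulated genes, Lgals3bp, a secreted glycoprotein, had the highest level of all members per kilobase of exons. Its normalized counts were 2432, 6558 and 2439 in the controls, and 1747, 4718 and 6713 under the E3–E12 diet (log2 fold change 0.17, standard error 0.78). Xaf1, a promoter of apoptosis, had 164, 89.0 and 461 against 242, 114 and 516 normalized counts, with overlapping ranges (log2 fold change 0.36, standard error 0.89). Ifi35 had 64.7, 379 and 127 against 26.0, 30.5 and 158 normalized counts. E3–E12 diet replicates 1 and 2 lay below every control, and replicate 3 lay between the controls (log2 fold change -1.52, standard error 1.0, or -0.84 without control replicate 2). Ifi27, Ifi44 and Rtp4 had log2 fold changes of -0.76, 0.23 and -0.11. Shared 50-base windows made up 7.71% of Parp9, 10.4% of Ifi35, 11.1% of Slfn5 and 12.7% of Gbp7, so that these values are less certain too.
Per kilobase of annotated exons, mean levels over the 6 libraries ran from 4.79 normalized counts for Mx2 to 1440 for Lgals3bp. After Lgals3bp came Ifnar2 at 1120, which control replicate 2 raised, Ifitm3 at 902, Ifngr1 at 376, Ifitm2 at 358 and Ifnar1 at 302. These receptors and membrane proteins thus stood above Stat2 at 139 and Irf9 at 142, whose levels differed by less than their spread between libraries. So did Bst2 at 251, Trim25 at 233, Eif2ak2 at 220, Slfn5 at 209, Gbp7 at 194, Isg15 at 191 and Trim30a at 146. Irf7 at 22.7, Usp18 at 21.9 and Rsad2 at 17.6 lay lower.

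**Figure D3:**
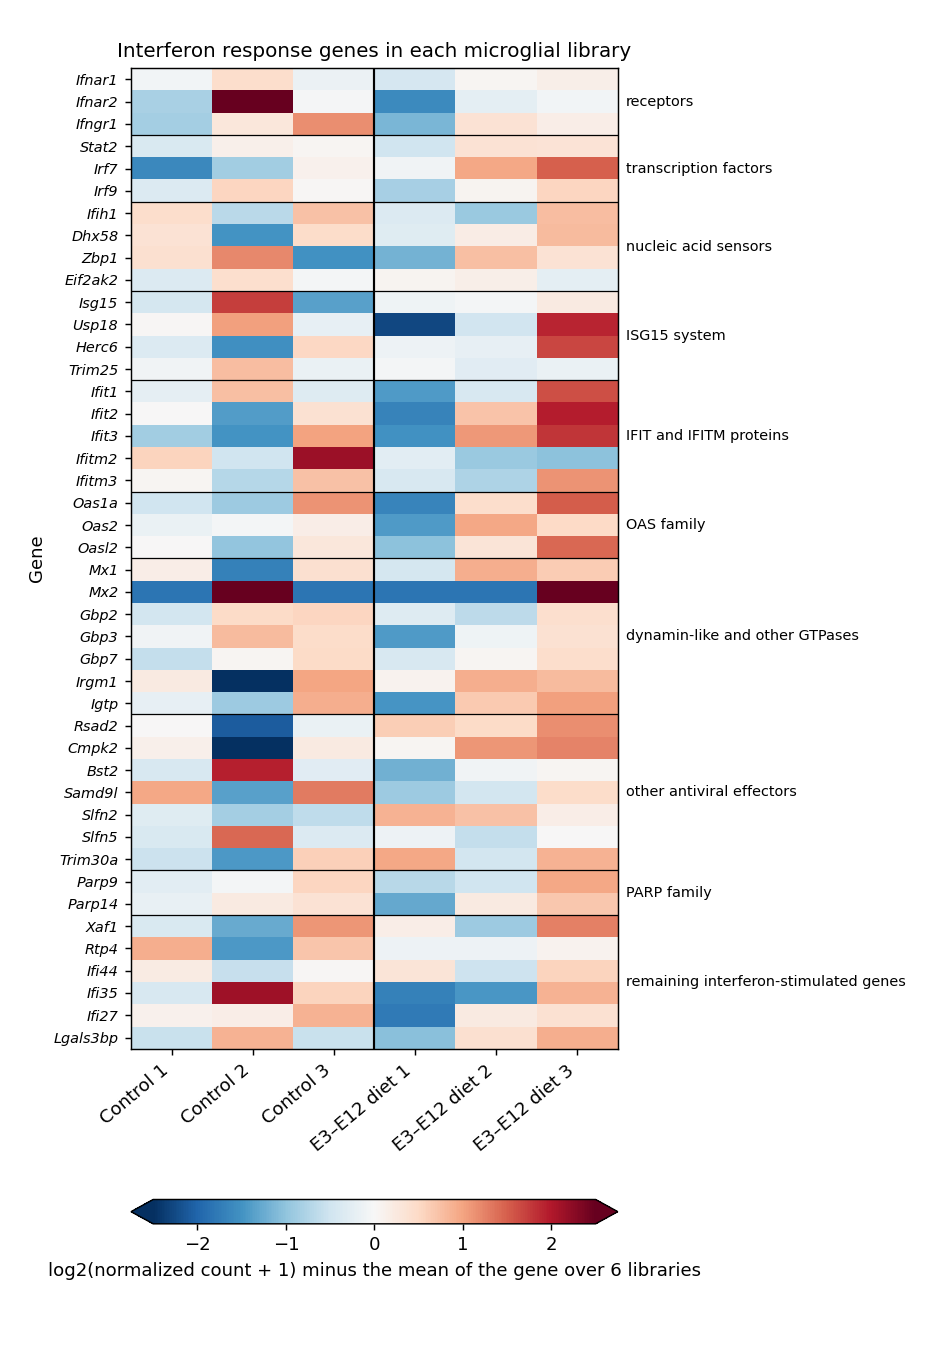
Level of each member (rows, by role) in each library (columns), as log2(normalized count + 1) minus the mean of that gene over the 6 libraries, from low (blue) to high (red). E3–E12 diet replicate 3 is the highest library for 20 of the 44 members and E3–E12 diet replicate 1 the lowest for 20 (vertical line, border between the diets).

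The libraries of 1 diet differed among themselves more than the diets did. This spread was not particular to the members, whose median SD within groups on the log2 scale was 0.916, beside 1.07 over all genes tested. E3–E12 diet replicate 3 was the highest of the 6 libraries in 20 members (45.5%), beside 13.2% of all genes tested. E3–E12 diet replicate 1 was the lowest in 20 members (45.5%), beside 16.5% of all genes. Replicate 3 lay above replicate 1 in 39 of 44 members (88.6%), beside 47.0% of all genes. These are descriptions of single libraries, with no test. The median fold of replicate 3 over replicate 1 was 2.45 over the 43 members above 0 in both, and 0.974 over all genes.
The genes that differed most between these libraries, named after their values were seen, encode classical products of the response. Usp18 had 7.93 normalized counts in E3–E12 diet replicate 1, 30.4 in replicate 2 and 162 in replicate 3, a 20.4-fold range, against 43.4, 87.0 and 36.8 in the controls. Ifit2 had 14.8, 80.9 and 193 under the E3–E12 diet and 49.5, 17.9 and 64.5 in the controls. Ifit3 had 13.6, 86.6 and 141 against 21.7, 13.8 and 81.7. For each of these genes all control libraries lay between the lowest and the highest E3–E12 diet library. Oas1a, with 10.2, 47.2 and 99.4 against 24.0, 17.8 and 76.2, and Ifit1, with 56.7, 115 and 466 against 131, 258 and 121, showed the same order. In E3–E12 diet replicate 1 a step of low values was 1.13 normalized counts. Usp18 at 7.93 and Oas1a at 10.2 there lay within a small number of steps of 0. Ifit3 and Ifit2 lay not far above, so these folds are imprecise. Slfn2, Ifitm2, Eif2ak2, Trim25 and Trim30a were the 5 members that were lower in replicate 3 than in replicate 1.
The microglia markers moved the same way between these libraries. All 10 were higher in E3–E12 diet replicate 3 than in replicate 1, with a median fold of 2.94. Over the diets as a whole, all 10 were on the lower side in E3–E12 diet mice, with a median log2 fold change of -0.28 and a range from -0.46 to -0.0041 (smallest adjusted p = 0.999 from limma). The markers were highest in control replicate 2, at a median of 1.13 above the gene mean on the log2 scale. The members lay at a median of -0.051 in that library, beside -0.29 over all genes tested. It was the lowest library for 12 members (27.3%), beside 38.2% of all genes. It was the highest for 11 members (25.0%), beside 26.3% of all genes. The part of the cell content in the differences between libraries was not tested.

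**Figure D4:**
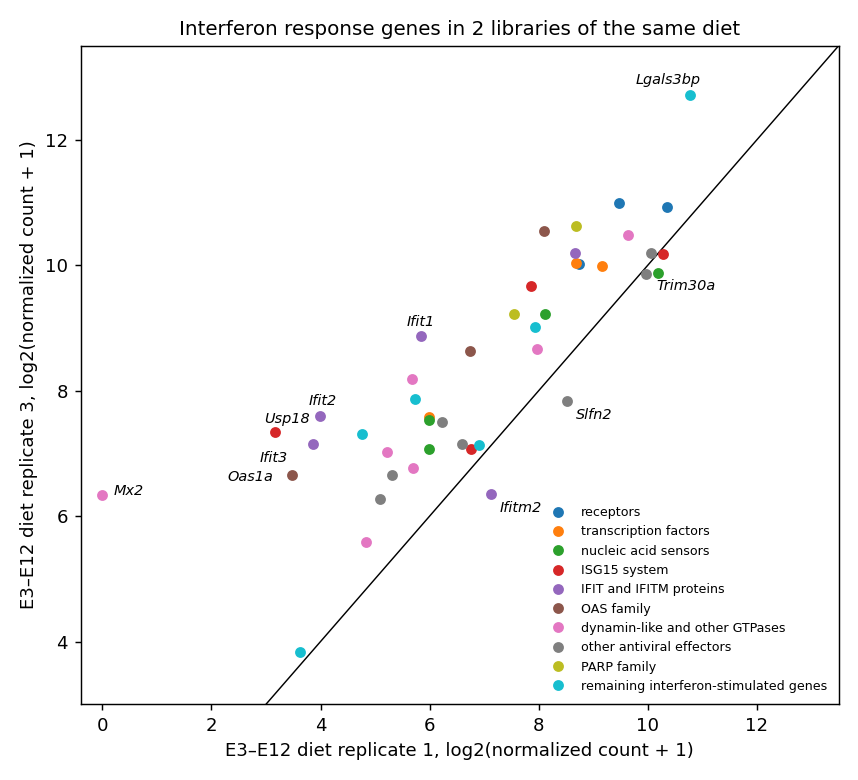
Level of each member in E3–E12 diet replicate 1 (horizontal axis) and replicate 3 (vertical axis), both as log2(normalized count + 1), coloured by role, with a line where the levels are equal. Of the 44 members, 39 lie above the line, with Usp18, Ifit2, Ifit3 and Oas1a far from it and Slfn2, Ifitm2 and Trim30a below it.

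The direction of the list as a whole followed which library was included. Without E3–E12 diet replicate 1, 31 of 44 members were on the higher side (median log2 fold change 0.34), beside 51.7% of all genes (median 0.036). Without E3–E12 diet replicate 3, 13 members were (median -0.25), beside 54.7% of all genes (median 0.11). The mean log2 level over the members was 7.41, 7.46 and 7.87 in the controls, and 6.94, 7.62 and 8.41 under the E3–E12 diet, so that the controls lay within the range of the E3–E12 diet group. The difference of the means was 0.073, with SDs of 0.254 in controls and 0.734 in E3–E12 diet mice. Members with a match to the interferon-stimulated response element in the promoter window had a median log2 fold change of 0.02 (18 tested, 9 on the higher side), and those with a window and no match one of 0.20 (16 tested, 9 on the higher side).

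A second list held 41 other genes of interferon induction and signaling, such as kinases, sensors, adaptors, phosphatases and the interferons themselves. Of these, 37 were in the table and 34 passed the filter. None passed the test (0 of 34, smallest adjusted p = 0.999 from limma), 0 had an unadjusted p under 0.05, and the groups overlapped in all 34. There were 16 on the higher side and 18 on the lower side, with a median log2 fold change of -0.036. The interferon genes in the table, named after their values were seen, were at 0 in most libraries. Ifnb1 had 6.96 normalized counts in control replicate 3 and was listed at 0 in the other libraries. Ifna2 had 1.08 in control replicate 3 and 1.12 in E3–E12 diet replicate 1, and Ifnl2 had 30.7 in E3–E12 diet replicate 1, each listed at 0 elsewhere.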

How the data were processed

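RNA from 6 libraries of mouse microglia (3 per diet) was sequenced as paired-end reads, of 75 bp per the labels. The study's methods state a shorter read length. The authors deposited 1 table of normalized counts, a signal per gene that is never negative and not whole. The submitters' processing notes name FastQC, STAR, featureCounts and DESeq2 and the build GRCm38, with no version or order. The annotation, and whether surrogate variables were adjusted for, as the table's name hints, are not given in the sources used here. The study's methods give the depth only as a range of reads per sample, not for each library. The steps of low values did not return whole reads, so no count model was used.

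Ensembl identifiers were matched to GENCODE M21 symbols (26507 of 26789). Genes whose mean reached 10 normalized counts were tested as log2(normalized count + 1) with limma 3.58.1 in R 4.3.3, without a covariate, two-sided, with Benjamini-Hochberg adjustment over all genes and a threshold of 0.1. The fit was run on simulated data as a check of the code. Its recovery at the spread of these data is not reported here. Single members also had an exact permutation test. The p-values measure the spread between libraries, which by the study's methods are litter pools. Members were named with every library's value by a fixed rule: receptors and transcription factors, members with an unadjusted p under 0.05 or non-overlapping groups, the 5 largest absolute log2 fold changes, members listed at 0 in a library, and the 2 highest of each role, with 6 others (Isg15, Usp18, Ifit1, Ifit2, Ifit3 and Oas1a) added after their values were seen. The members, lists and rules were chosen with earlier results of these data known. Shared sequence was taken as the share of 50-base transcript windows found in other annotated genes. Promoter windows came from RefSeq. The alternatives were other pseudocounts, filters, scalings, weights and variance models, a replicate block, and leaving out each library.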

Additional observations from a re-analysis of the deposited data

How the results depend on the processing

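No member passed the adjusted threshold of 0.1 in any of the alternatives run, with the smallest adjusted p of a member 0.598, with array weights (limma). The limits are the 3 libraries per group, the unknown read depth of each library and the spread between libraries. The 3 libraries per group and the spread between libraries leave a median standard error of 0.78 for a member. Members with an unadjusted p under 0.05 numbered 0 as reported, 1 of 30 with a minimum mean of 100 normalized counts (Slfn2, 3.33% beside 1.49% of all genes), 1 of 44 after rescaling to a common total (Irf7, 2.27% beside 1.37%), 1 with the replicate block (Irf7, 2.27% beside 2.6%) and 3 with array weights (Ifitm2, Samd9l and Slfn2, 6.82% beside 6.69%), where 5 of all genes passed the adjusted threshold. Leaving out 1 library gave 0 to 1, namely Ifitm2 when control replicate 2 was left out (2.27% beside 2.38% of all genes) and Irf7 when E3–E12 diet replicate 1 was (2.27% beside 1.93%). With the minimum mean of 100, 30 members were tested. Of these, 12 were on the higher side, beside 48.5% of all genes. In 1 (Slfn2, 3.33%) the groups did not overlap, beside 6.1% of all genes. Leaving out 1 library moved the members on the higher side between 13 (E3–E12 diet replicate 3 left out) and 31 (replicate 1 of that diet left out). Over all genes the shares on the higher side in these fits were 54.7% and 51.7%. Members without overlap numbered between 4 and 11, where the smaller groups also raised the share over all genes to between 12.6% and 17.8%.

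The labels do not say whether the replicate numbers pair the libraries. Same-numbered libraries deviated from their group means with correlations of 0.26, 0.0348 and 0.142 over the tested genes for numbers 1, 2 and 3. Each E3–E12 diet library correlated best with the control of its own number. Control replicate 2, however, correlated best with E3–E12 diet replicate 3 (0.0869). With the replicate block, 0 members passed the adjusted threshold, and 468 of all genes had an unadjusted p under 0.05 in place of 327.

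The median log2 fold change of all genes was 0.15 after rescaling to a common total and -0.0034 after quantile normalization, against 0.087 as deposited. Of the 44 members, 18 turned direction in an alternative other than leaving out a library, and the cause was not tested. After quantile normalization the log2 fold change was 0.010 for Ifnar1, -0.012 for Dhx58, 0.14 for Eif2ak2, -0.0081 for Ifit2, -0.35 for Oas1a, -0.11 for Oas2 and -0.26 for Igtp. After rescaling to a common total it was 0.04 for Zbp1, 0.11 for Eif2ak2 and 0.074 for Ifitm3. With array weights, which give less weight to libraries that deviate more, it was 0.13 for Ifnar1, 0.10 for Irf9, -0.044 for Dhx58, 1.39 for Zbp1, 0.07 for Eif2ak2, 0.25 for Usp18, 0.47 for Ifit1, -0.33 for Oas1a, -0.18 for Gbp7, -0.018 for Irgm1, -0.26 for Igtp, 0.0052 for Bst2, 0.017 for Slfn5, -0.053 for Trim30a and -0.68 for Xaf1. Leaving out 1 library kept the direction of 18 of the 44 members (Ifnar2, Irf7, Herc6, Trim25, Ifit3, Ifitm2, Mx1, Gbp2, Gbp3, Rsad2, Cmpk2, Bst2, Samd9l, Slfn2, Trim30a, Ifi44, Ifi35 and Ifi27) and turned it in 26. For these 26 the log2 fold changes ran from -0.26 to 0.036 for Ifnar1, -0.93 to 0.074 for Ifngr1, -0.014 to 0.43 for Stat2, -0.46 to 0.22 for Irf9, -0.80 to 0.049 for Ifih1, -0.18 to 0.79 for Dhx58, -0.83 to 0.53 for Zbp1 and -0.19 to 0.19 for Eif2ak2. They ran from -0.62 to 0.93 for Isg15, -1.66 to 0.43 for Usp18, -0.98 to 0.53 for Ifit1, -0.15 to 1.67 for Ifit2, -0.51 to 1.07 for Oas1a, -0.35 to 0.91 for Igtp and -0.85 to 0.32 for Rtp4, and from -0.61 to 0.34 for Ifitm3, -0.45 to 0.74 for Oas2, -0.12 to 1.11 for Oasl2, -1.55 to 2.11 for Mx2, -0.23 to 0.31 for Gbp7 and -0.011 to 1.99 for Irgm1. The ranges were -0.78 to 0.13 for Slfn5, -0.67 to 0.17 for Parp9, -0.66 to 0.31 for Parp14, -0.18 to 1.0 for Xaf1 and -0.24 to 0.73 for Lgals3bp.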
